A study of Homo sapiens with 10 samples.

Results

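The genes described here are 10 genes of the pluripotent state, DPPA4, L1TD1, LIN28A, LIN28B, POU5F1, NANOG, DNMT3B, SALL4, TDGF1 and DPPA2, out of 30357 named genes. They were chosen by name because DPPA4 and L1TD1 had been seen to be lower in libraries of the mechanoreceptor protocol, so their values in the mechanoreceptor libraries are a description and carry no test. All 10 had an entry, TDGF1 under its current symbol CRIPTO, and 7 had enough counts to enter the test. Bulk RNA was sequenced from neurons made at day 60 in vitro (DIV60) from RUES2-Avil:tdT, a reporter version of the human embryonic line RUES2 named for advillin, a gene of sensory neurons. Every library came from this 1 edited line and the protocols were the only labelled difference. The groups were 3 libraries of the mechanoreceptor protocol (named for touch-sensing neurons), 3 of the proprioceptor protocol (named for neurons that report limb position) and 4 of the nociceptor protocol (named for pain-sensing neurons). The labels called them biological replicates without saying whether they were separate differentiations, so p-values reflect only how far libraries of a protocol lay apart, part of which may be technical. Neither do the labels say whether reporter-positive cells were sorted. No undifferentiated stem cell library was among them, so the levels cannot be set against those of the starting cells.

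Pluripotent stem cells keep themselves undifferentiated through a small network of transcription factors, with POU5F1 (OCT4) and NANOG at its centre and SALL4 as a partner. LIN28A and LIN28B are RNA-binding proteins that block the maturation of let-7 microRNAs, which otherwise silence growth genes of the embryo. DPPA2 and DPPA4 are paired DNA-binding proteins of chromatin in early embryos, L1TD1 is an RNA-binding protein that descends from a LINE-1 transposon, DNMT3B places new DNA methylation, and CRIPTO (TDGF1) is the cell-surface co-receptor of NODAL. Several of these genes fall silent when cells leave pluripotency, while LIN28B and SALL4 are also known from later embryonic and progenitor cells.

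Library totals ran between 27891186 and 44541262 counts in named genes, so a level of 3 counts, taken here as the floor of detection, corresponds to 0.0674 to 0.1076 CPM (counts scaled to the library total), for counting error only. Neuronal genes were high in every library: the mean log2 CPM of 12 pan-neuronal genes lay between 8.49 and 8.84 in mechanoreceptor, 8.47 and 9.34 in proprioceptor and 7.82 and 8.87 in nociceptor libraries. Genes of other cell types were also detected. The mean log2 CPM of mesenchyme genes was 0.02, 0.27 and 4.08 in mechanoreceptor libraries 1 to 3, 0.66, 4.17 and 0.58 in proprioceptor libraries 1 to 3 and 5.34, 5.27, 4.99 and 1.73 in nociceptor libraries 1 to 4. In bulk RNA, fewer cells of a type and less RNA per cell cannot be told apart.

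The 10 genes were low throughout. By median TPM (the length-corrected level) over the 10 libraries they ran in the order LIN28B (1.97), DNMT3B (1.71), L1TD1 (0.588), DPPA4 (0.557), SALL4 (0.536), POU5F1 (0.156), NANOG (0.0999), LIN28A (0.0985), CRIPTO (0.0666) and DPPA2 (0). Neighbours in this order had overlapping ranges. LIN28B, the highest, stood above 59.6% of all named genes. The summed TPM of the 10 genes was 10.6, 5.42 and 6.15 in mechanoreceptor libraries 1 to 3, 1.98, 8.13 and 7.78 in proprioceptor libraries 1 to 3 and 12.5, 7.94, 13.6 and 10.1 in nociceptor libraries 1 to 4. The make-up of the sum also differed, described here by the share of DPPA4 and L1TD1, the pair for which the genes were chosen. DPPA4 and L1TD1 held 2.00% to 18.3% of it in mechanoreceptor libraries and 9.11% to 23.3% in proprioceptor libraries, against 59.5%, 59.0% and 62.0% in nociceptor libraries 1 to 3 and 17.3% in nociceptor library 4.

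**Figure D1:**
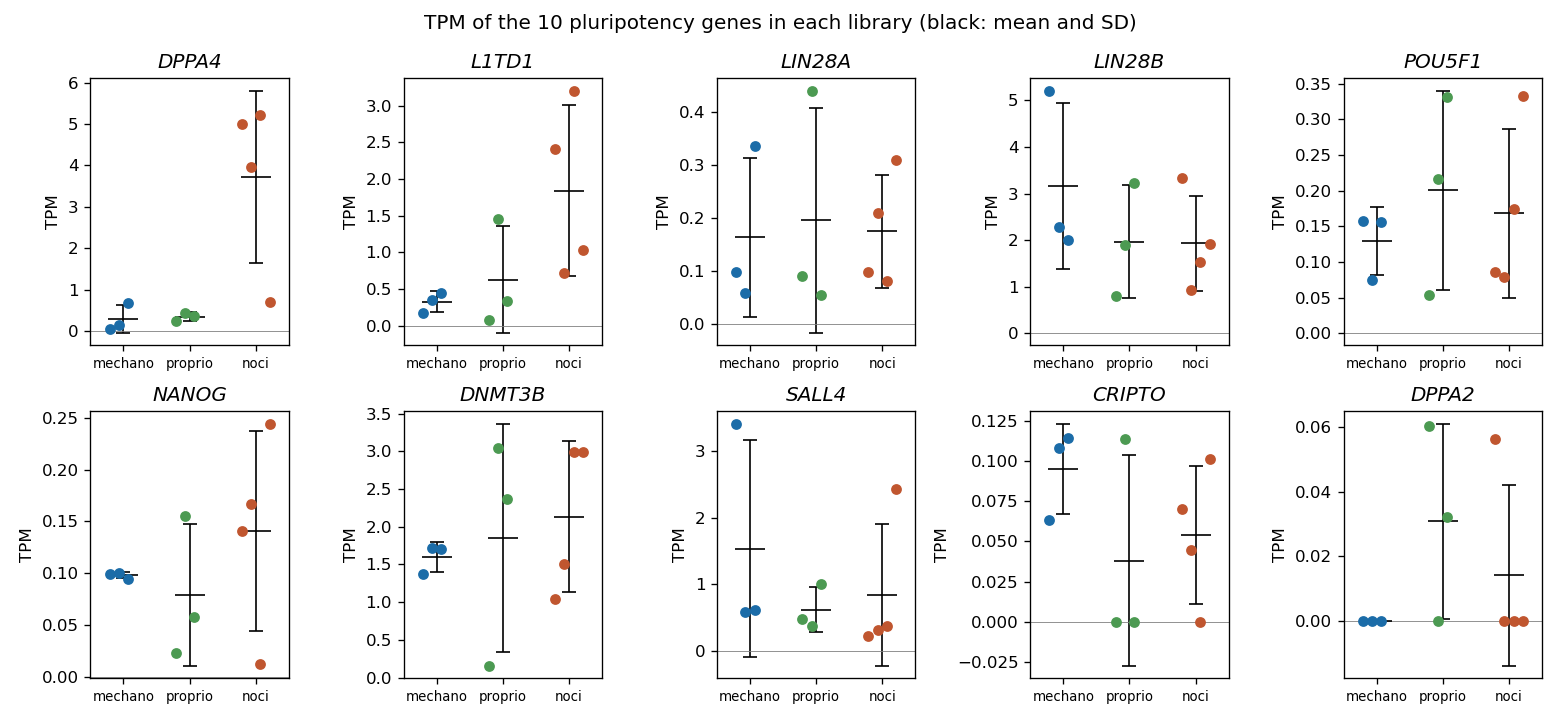
TPM of each gene (vertical axes, scaled per gene, with a grey line at 0) in libraries of the mechanoreceptor, proprioceptor and nociceptor protocols; each point is 1 library, the black bar is the mean and the whiskers its SD (n = 3, 3 and 4). DPPA4 was at most 0.674 TPM in mechanoreceptor and 0.440 TPM in proprioceptor libraries, against 3.96 to 5.21 TPM in nociceptor libraries 1 to 3 and 0.700 TPM in nociceptor library 4.

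DPPA4 was highest in nociceptor libraries 1 to 3. Its TPM was 0.0392, 0.147 and 0.674 in mechanoreceptor libraries 1 to 3, 0.240, 0.440 and 0.365 in proprioceptor libraries 1 to 3 and 5.01, 3.96, 5.21 and 0.700 in nociceptor libraries 1 to 4. In counts this was 1, 3 and 22 in mechanoreceptor, 11, 18 and 9 in proprioceptor and 316, 210, 206 and 16 in nociceptor libraries. Mechanoreceptor library 3 and nociceptor library 4 were neighbours, at 0.670 and 0.574 CPM, so these groups overlap in CPM while in TPM a narrow gap parts them. Low DPPA4 was found in the proprioceptor libraries too. RefSeq (GRCh38.p14) places DPPA4 on chromosome 3, from 109326144 to 109339636. DPPA2, its partner gene, ends 9627 bases away, at 109293788 to 109316517, and had at most 2 counts in any library and 0 counts in 7 of them.

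The difference lay mostly in 1 transcript. DPPA4-201, the annotated protein-coding form with the most counts, was estimated at 0, 0 and 7 counts in mechanoreceptor libraries 1 to 3, 0, 5 and 0 in proprioceptor libraries 1 to 3 and 272, 177, 163 and 0 in nociceptor libraries 1 to 4. It made up 86.1%, 84.3% and 78.7% of the counts of the gene in nociceptor libraries 1 to 3. The other DPPA4 transcripts, of which those with any counts are annotated as retained-intron, processed or nonsense-mediated decay forms, summed to 1, 3 and 14 counts in mechanoreceptor, 11, 14 and 9 in proprioceptor and 44, 33, 44 and 17 in nociceptor libraries. In nociceptor library 4 the gene count therefore rested on these other transcripts alone. Kallisto divides reads among overlapping transcripts by estimation, so single counts here are approximate.

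**Figure D2:**
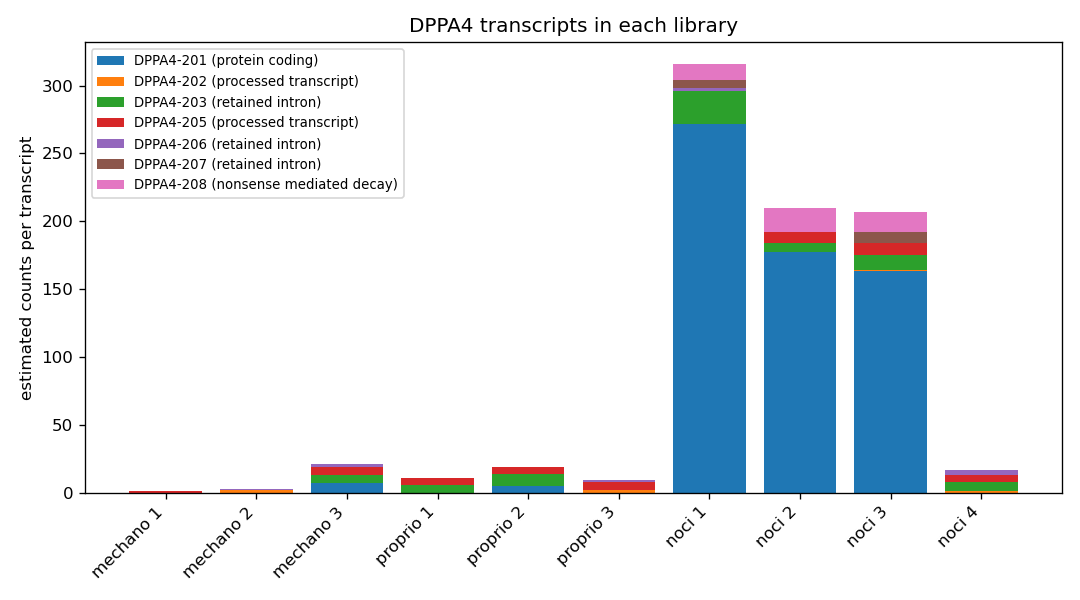
Estimated counts (vertical axis, from 0) of each DPPA4 transcript stacked per library, with mechanoreceptor, proprioceptor and nociceptor libraries from left to right. DPPA4-201 holds at most 7 counts in mechanoreceptor and 5 in proprioceptor libraries, against 163 to 272 in nociceptor libraries 1 to 3 and 0 in nociceptor library 4.

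L1TD1 was also highest in nociceptor libraries 1 and 3, with a more graded profile. Its TPM was 0.173, 0.356 and 0.453 in mechanoreceptor libraries 1 to 3, 0.0865, 1.45 and 0.344 in proprioceptor libraries 1 to 3 and 2.41, 0.722, 3.20 and 1.04 in nociceptor libraries 1 to 4. The mechanoreceptor libraries lay below all nociceptor libraries, while proprioceptor library 2 lay among them. In the same annotation L1TD1 runs from 62194849 to 62212328 on chromosome 1. Its neighbour KANK4, which encodes a protein that links adhesions to the cytoskeleton, starts 23837 bases beyond it, at 62236165. KANK4 had a TPM of 0.0441, 0.142 and 0.221 in mechanoreceptor, 0.0960, 0.569 and 0.0845 in proprioceptor and 1.60, 0.509, 1.30 and 0.248 in nociceptor libraries. The neighbour on the other side, PATJ, a cell polarity gene, had another order, with 4.50, 10.01 and 9.92 TPM in mechanoreceptor, 16.0, 9.63 and 3.02 in proprioceptor and 3.20, 4.09, 3.06 and 4.68 in nociceptor libraries.

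The promoter windows of DPPA4 and L1TD1, the pair for which the genes were chosen, are shown with that of NANOG, which carries the known joint binding element of OCT4 and SOX2. They hold 250 bases before and 50 after an annotated start, read 5′ to 3′ on the strand of the gene, from RefSeq on GRCh38.p14, where 7 of the 10 genes had a window. Capitals mark CCAAT (either strand) and CCATNTT in DPPA4 and L1TD1, and the joint element in NANOG (TTTGCAT, any 1 base, then ACAATG).
DPPA4 promoter, chr3:109337497-109337796, minus strand: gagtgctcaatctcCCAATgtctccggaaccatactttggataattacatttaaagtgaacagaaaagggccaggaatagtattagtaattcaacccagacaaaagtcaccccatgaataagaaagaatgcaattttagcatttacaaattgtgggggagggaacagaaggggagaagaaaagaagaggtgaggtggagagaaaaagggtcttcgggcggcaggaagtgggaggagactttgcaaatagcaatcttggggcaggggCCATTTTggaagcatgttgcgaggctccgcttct
L1TD1 promoter, chr1:62194599-62194898, plus strand: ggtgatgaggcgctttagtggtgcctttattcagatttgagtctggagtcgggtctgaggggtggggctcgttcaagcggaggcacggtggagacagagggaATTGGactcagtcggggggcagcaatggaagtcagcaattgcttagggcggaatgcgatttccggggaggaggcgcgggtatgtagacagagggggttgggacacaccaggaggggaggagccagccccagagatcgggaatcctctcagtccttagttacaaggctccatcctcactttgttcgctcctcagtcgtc
NANOG promoter, chr12:7789152-7789451, plus strand: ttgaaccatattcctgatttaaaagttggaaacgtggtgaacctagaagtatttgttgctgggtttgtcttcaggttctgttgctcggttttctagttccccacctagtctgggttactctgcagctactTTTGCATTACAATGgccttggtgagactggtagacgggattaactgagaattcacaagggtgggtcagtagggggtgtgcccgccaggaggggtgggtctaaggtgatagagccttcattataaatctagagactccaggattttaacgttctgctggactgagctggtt
The joint element was found in the NANOG window and in 0.00854% of 35116 windows of this length. The octamer ATGCAAAT, on either strand, was in 1.77% of them and in no window of these genes, and its first 7 letters, ATGCAAA, which the joint element contains in reverse, were in 4.46% and among these genes in that of NANOG. CCAAT was in windows of DPPA4, L1TD1, CRIPTO, LIN28B and DNMT3B and in 34.6% of all windows, and CCATNTT in those of DPPA4, DPPA2 and NANOG (in capitals for DPPA4 only) and in 15.6%. The E2F forms TTTGGCGC and TTTCCCGC, in 0.652% and 1.63% of windows, were in none of these genes' windows, and TATAAA (11.5%) was in that of NANOG. The DPPA4 window held 5 CpG dinucleotides and the L1TD1 window 14, against a median of 14 over all windows. These matches are letters only and do not show binding.

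Of the core factors, POU5F1 was close to the floor in every library and NANOG had at most 25 counts. POU5F1 had 3, 3 and 5 counts in mechanoreceptor libraries 1 to 3, 3, 7 and 11 in proprioceptor libraries 1 to 3 and 3, 3, 7 and 7 in nociceptor libraries 1 to 4. Its transcripts POU5F1-201 and POU5F1-202 were at 0 counts in all 10 libraries, and the few counts fell on other annotated transcripts of the gene. POU5F1B, a retrogene copy with near-identical sequence, had 18 to 52 counts per library, more than POU5F1 in each of them, and reads that fit both are divided by estimation, so the POU5F1 values are uncertain. NANOG had 8, 14 and 11 counts in mechanoreceptor, 3, 17 and 7 in proprioceptor and 21, 22, 1 and 25 in nociceptor libraries. Its lowest value was in nociceptor library 3, where DPPA4 was highest by TPM. The 10 NANOG pseudogenes in the table summed to between 3 and 14 counts per library.

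SALL4 was lowest in the libraries where DPPA4 was highest. Its TPM was 3.42, 0.589 and 0.609 in mechanoreceptor libraries 1 to 3, 0.483, 0.376 and 1.00 in proprioceptor libraries 1 to 3 and 0.231, 0.314, 0.371 and 2.43 in nociceptor libraries 1 to 4. Nociceptor libraries 1 to 3, the libraries with most DPPA4-201, were the 3 lowest for SALL4. Nociceptor library 4 was the second highest by TPM and the highest by CPM (5.557, against 4.395 in mechanoreceptor library 1). In mechanoreceptor library 1, SALL4 drew 1.43 of its 3.42 TPM from 15 counts of SALL4-204, a short processed transcript. Of its relatives, SALL2, a zinc finger factor of the same family, had 15.4, 13.98 and 11.9 TPM in mechanoreceptor, 8.19, 11.9 and 21.1 in proprioceptor and 7.67, 5.04, 7.28 and 22.8 in nociceptor libraries. Nociceptor libraries 1 to 3 were again the 3 lowest and nociceptor library 4 the highest. SALL1 and SALL3 did not follow this order. SALL1 had 0.186, 0.0850 and 1.06 TPM in mechanoreceptor, 0.133, 0.543 and 0.0691 in proprioceptor and 0.0827, 0.284, 0.117 and 0.516 in nociceptor libraries. SALL3 had 0.152, 0.247 and 2.48 TPM in mechanoreceptor, 0.132, 2.61 and 0.428 in proprioceptor and 0, 0.559, 0.574 and 1.37 in nociceptor libraries. SALL2 did not pass in either comparison with the nociceptor libraries (log2 fold change 0.49 ± 0.45 for mechanoreceptor, edgeR adjusted p = 0.732, and 0.54 ± 0.45 for proprioceptor, adjusted p = 0.699).

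DNMT3B, the methyltransferase, had a TPM of 1.37, 1.72 and 1.71 in mechanoreceptor libraries 1 to 3, 0.150, 3.05 and 2.36 in proprioceptor libraries 1 to 3 and 1.05, 1.51, 2.99 and 3.00 in nociceptor libraries 1 to 4. The groups overlapped, and the spread within the proprioceptor and nociceptor groups exceeded the differences between means (1.60 ± 0.197, 1.86 ± 1.52 and 2.14 ± 1.01 TPM, SD, n = 3, 3 and 4). Of the other 9 tested genes of the DNA methylation machinery, 0 passed in any contrast, as 0% of all 16130 tested genes did. Among them UHRF1, which carries methylation through replication, had 0.208, 0.169 and 1.46 TPM in mechanoreceptor, 0.159, 4.42 and 0.222 in proprioceptor and 5.68, 8.69, 17.0 and 0.689 in nociceptor libraries (mechanoreceptor minus nociceptor log2 fold change -3.83 ± 1.34, edgeR adjusted p = 0.598). DNMT3A, the other de novo methyltransferase, had -1.01 ± 0.39 in the same contrast (edgeR adjusted p = 0.598).

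LIN28B was detected well above the floor in every library and exceeded LIN28A in each. LIN28B had a TPM of 5.21, 2.27 and 2.00 in mechanoreceptor libraries 1 to 3, 0.791, 1.89 and 3.22 in proprioceptor libraries 1 to 3 and 3.33, 0.935, 1.53 and 1.93 in nociceptor libraries 1 to 4. LIN28A had 0.0980, 0.0584 and 0.336 TPM in mechanoreceptor, 0.0913, 0.441 and 0.0559 in proprioceptor and 0.0991, 0.210, 0.0826 and 0.310 in nociceptor libraries, from 5 to 37 counts. The protocols overlapped for both, and the highest and lowest LIN28B libraries were 6.59-fold apart. LIN28B counts came mainly from LIN28B-201, which held between 57.4% of them (proprioceptor library 1) and 95.0% (nociceptor library 1). LIN28B-203, which starts farther upstream and ends earlier, held between 2.93% and 34.4%, in the same libraries in reverse.

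LIN28B-201 and LIN28B-203 differ in their 3′ ends, where let-7 microRNAs can bind. The seed of let-7 (bases 2 to 8, capitals in the mature sequences from RefSeq on GRCh38.p14) pairs with CTACCTC (capitals in the sites). This heptamer occurred 4 times in the 3′ untranslated region of LIN28B-201 and 1 time in that of LIN28B-203 (GENCODE release 29 models, GRCh38). LIN28B-202 has no annotated 3′ untranslated region. The 4 matches in LIN28B-201 are shown with 2 let-7 members that share the seed.
hsa-let-7a-5p: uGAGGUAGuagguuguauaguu
hsa-let-7g-5p: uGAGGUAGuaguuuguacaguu
LIN28B-201 site 1, chr6:105078812-105078834, plus strand: acccggttgcaaagtCTACCTCa
LIN28B-201 site 2, chr6:105081239-105081261, plus strand: tactgatgatagtaaCTACCTCt
LIN28B-201 site 3, chr6:105081421-105081443, plus strand: gtttacagcaaaaggCTACCTCa
LIN28B-201 site 4, chr6:105082860-105082882, plus strand: aaatgatggtgttgaCTACCTCt
MicroRNAs were not measured, and a match is a description of sequence only.

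The other 18 genes of the LIN28 and let-7 axis, made up of let-7 processing enzymes and let-7 targets, were all tested and 0 passed in any contrast (0% of all tested genes). Between mechanoreceptor and nociceptor libraries 12 had a fold change below 0 and 6 above (median log2 fold change -0.10, against 0.00 over all tested genes). Between proprioceptor and nociceptor libraries 14 were below and 4 above (median -0.13, against 0.03). Proprioceptor library 1 had the lowest mean log2 CPM of these genes among all libraries (2.94, against 4.36 and 3.97 in proprioceptor libraries 2 and 3). The part of this library in the counts of direction was not tested. HMGA2, a chromatin protein and a known let-7 target, had 0.158, 0.151 and 0.617 TPM in mechanoreceptor, 0.158, 0.865 and 0.175 in proprioceptor and 2.76, 1.23, 1.68 and 0.718 in nociceptor libraries. Its log2 fold change was -2.51 ± 0.83 for mechanoreceptor minus nociceptor (edgeR adjusted p = 0.598) and -2.06 ± 0.81 for proprioceptor minus nociceptor (adjusted p = 0.665). IGF2BP3, an RNA-binding protein of embryonic cells, had -1.05 ± 0.96 in both (adjusted p = 0.734 and 0.717), and CCND1, a cyclin, -2.24 ± 1.70 and -1.80 ± 1.66 (adjusted p = 0.687 and 0.719).

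CRIPTO and DPPA2 could not be tested. CRIPTO had 3, 4 and 3 counts in mechanoreceptor libraries 1 to 3, 0, 3 and 0 in proprioceptor libraries 1 to 3 and 2, 1, 0 and 2 in nociceptor libraries 1 to 4, all at or near the floor. DPPA2 had 0 counts in the mechanoreceptor libraries, 2, 0 and 1 in the proprioceptor libraries and 2, 0, 0 and 0 in the nociceptor libraries. Of 14 genes of the NODAL and CRIPTO pathway, 10 were tested and 0 passed (0% of all tested genes). LEFTY1, a NODAL antagonist, had 0.675, 1.01 and 0.859 TPM in mechanoreceptor, 0.208, 0.772 and 0.928 in proprioceptor and 0.222, 0.270, 0.187 and 0.579 in nociceptor libraries (mechanoreceptor minus nociceptor 1.30 ± 0.57, edgeR adjusted p = 0.598). CFC1, the relative of CRIPTO, had 1.56 ± 1.26 for proprioceptor minus nociceptor (adjusted p = 0.694), and SMAD3, a transducer of NODAL signals, -1.21 ± 0.75 for mechanoreceptor minus nociceptor (adjusted p = 0.638).

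Mechanoreceptor minus nociceptor log2 fold changes, from the contrast used to choose the genes and so given without a test, were -4.37 ± 1.16 (SE) for DPPA4 and -3.15 ± 0.86 for L1TD1. For the other 5 genes in the fit they were -0.74 ± 0.83 (NANOG), -0.72 ± 0.69 (DNMT3B), -0.20 ± 0.85 (LIN28A), 0.36 ± 0.55 (LIN28B) and 0.53 ± 0.76 (SALL4), each of about the size of its error or smaller. DPPA4 and L1TD1 were the 2 of 10 genes whose mechanoreceptor and nociceptor gene TPM did not overlap downward. Of the 16130 tested genes 1.84% did so (8.05% upward), and nothing is read from that count. The L1TD1 gap holds for gene TPM, while the TPM of L1TD1-201 alone overlapped. Of all tested genes edgeR called 0% in this contrast (1320 genes had an unadjusted p under 0.05, 4.59% of all genes lower and 3.59% higher), and DESeq2 called 0.707% lower and 0.0992% higher. The SALL4 fold change depended on single libraries in both groups. It was 0.01 ± 0.88 without mechanoreceptor library 1 and 1.84 ± 0.51 without nociceptor library 4. Without mechanoreceptor library 3, which held most of the DPPA4 counts of its group, the DPPA4 fold change was -6.65 ± 1.27.

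Mechanoreceptor minus proprioceptor log2 fold changes were -0.74 ± 1.10 for DPPA4 and -1.05 ± 0.84 for L1TD1, also without a test. All 10 genes overlapped in TPM between these protocols (0.868% of tested genes did not overlap downward and 5.02% upward). edgeR called 0% of genes (241 at an unadjusted p under 0.05, 0.744% lower and 0.75% higher) and DESeq2 0%. The DPPA4 value was -0.21 ± 1.10 without mechanoreceptor library 1, -0.30 ± 1.20 without mechanoreceptor library 2 and -2.98 ± 1.15 without mechanoreceptor library 3. The L1TD1 value was -1.76 ± 0.97 without mechanoreceptor library 3 and -0.16 ± 0.88 without proprioceptor library 2.

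Proprioceptor minus nociceptor is the contrast in which the genes were tested, though it shares the 4 nociceptor libraries with the contrast that chose them. The p-values of DPPA4 and L1TD1, with edgeR and with DESeq2, are therefore not independent of that choice and may be too small. DPPA4 had a log2 fold change of -3.62 ± 1.11 (mean 0.348 ± 0.101 TPM in proprioceptor and 3.72 ± 2.09 TPM in nociceptor libraries, SD, n = 3 and 4). It was below every nociceptor library in 3 of 3 proprioceptor libraries and did not pass (edgeR adjusted p = 0.665). With DESeq2 it passed (-3.63 ± 0.92, adjusted p = 0.0476), as 0.118% of all genes did in this direction and 0.0744% in the other. L1TD1 had -2.10 ± 0.81 (mean 0.628 ± 0.727 and 1.84 ± 1.17 TPM in the same order) and did not pass (edgeR adjusted p = 0.665). The other 5 tested genes had edgeR adjusted p values of 0.736 (NANOG), 0.823 (DNMT3B), 0.924 (LIN28B), 0.955 (LIN28A) and 0.992 (SALL4). SALL4 had -0.04 ± 0.77, and 1.28 ± 0.51 without nociceptor library 4. In all, 0 of 7 tested genes passed with edgeR, as 0% of all 16130 genes did (998 at an unadjusted p under 0.05, 3.14% of all genes lower and 3.05% higher). TPM did not overlap downward for 1 of 10 genes (DPPA4), against 1.45% of tested genes (1.49% upward), a count that also rests on the shared nociceptor libraries and from which nothing is read.

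**Figure D3:**
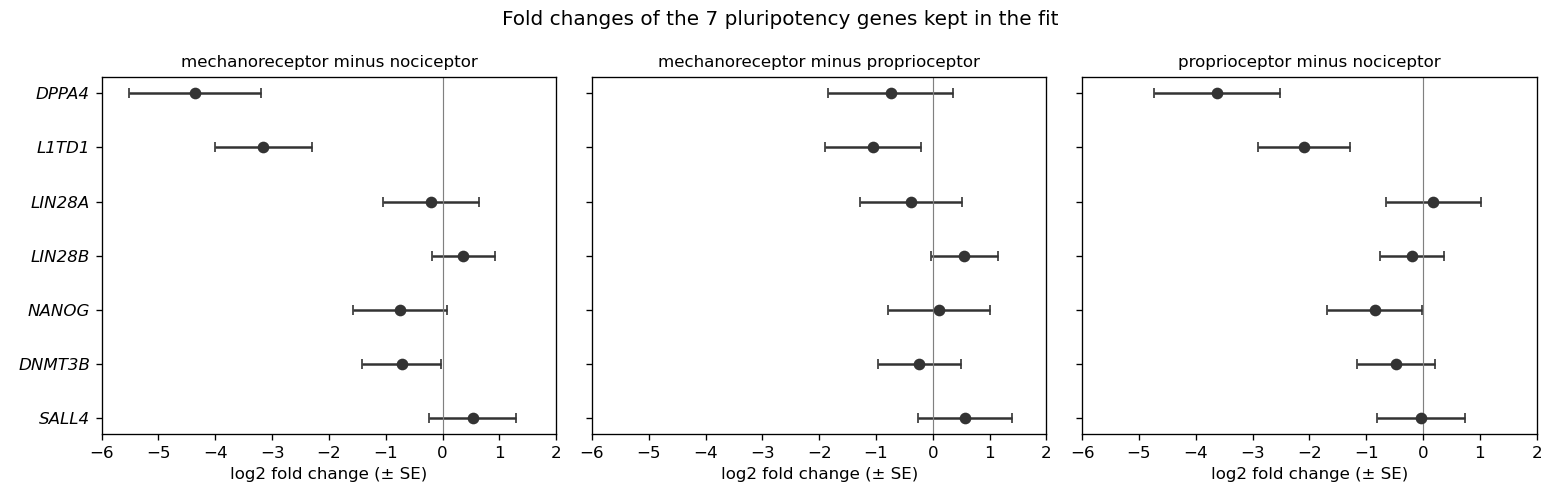
Log2 fold changes (horizontal axis, points, with SE as bars) of the 7 genes kept in the edgeR fit for mechanoreceptor minus nociceptor, mechanoreceptor minus proprioceptor and proprioceptor minus nociceptor. DPPA4 (-4.37 and -3.62) and L1TD1 (-3.15 and -2.10) lie left of 0 in both contrasts with the nociceptor protocol, and the other 5 genes lie between -0.85 and 0.53 there.

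Genes of dividing cells, mesenchyme and glia had their highest mean levels in nociceptor libraries 1 to 3, as DPPA4 did. Among the other libraries, the order by glia or mesenchyme level differed from the order by DPPA4 TPM. The mean log2 CPM of 16 proliferation genes was 0.61, -0.11 and 1.94 in mechanoreceptor libraries 1 to 3, 1.16, 3.35 and 0.84 in proprioceptor libraries 1 to 3 and 4.03, 4.48, 4.54 and 1.84 in nociceptor libraries 1 to 4. Nociceptor libraries 1 to 3 were the 3 highest, with proprioceptor library 2 next. All 16 had a fold change below 0 in mechanoreceptor minus nociceptor (median -3.16) and in proprioceptor minus nociceptor (median -1.80), and 0 passed (0% of all tested genes). The level of 10 Schwann and satellite glia genes was 1.68, 0.53 and 6.48 in mechanoreceptor, 3.58, 6.70 and 2.68 in proprioceptor and 7.38, 7.03, 7.83 and 4.83 in nociceptor libraries. Mechanoreceptor library 3 and proprioceptor library 2 had glia levels of 6.48 and 6.70 and mesenchyme levels of 4.08 and 4.17. Their proliferation levels were 1.94 and 3.35, and their DPPA4 was 0.674 and 0.440 TPM. Nociceptor library 2 was higher on each list, at 7.03, 5.27 and 4.48 in the same order, and had 3.96 TPM of DPPA4. With the mesenchyme level as a covariate the mechanoreceptor minus nociceptor value was -2.65 ± 0.83 for DPPA4 and -1.65 ± 0.69 for L1TD1, and with the proliferation level it was -1.26 ± 1.11 and -0.74 ± 0.80. For proprioceptor minus nociceptor the DPPA4 value was -1.19 ± 0.92 with the mesenchyme level and -0.93 ± 1.08 with the proliferation level. The part of these cells in the differences was not tested.

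**Figure D4:**
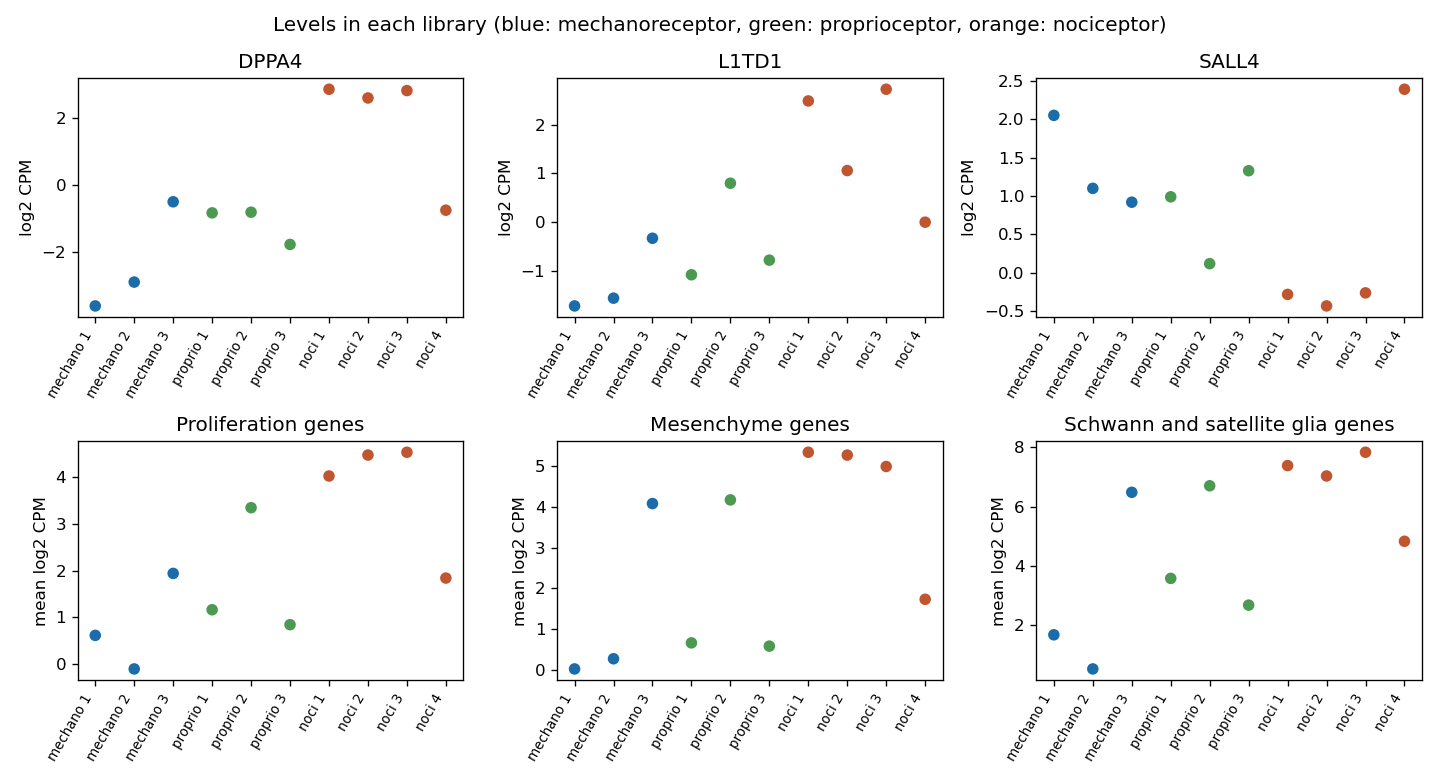
Log2 CPM of DPPA4, L1TD1 and SALL4 (upper row) and mean log2 CPM of proliferation, mesenchyme and Schwann and satellite glia genes (lower row) in each library, coloured by protocol, with separate vertical scales that do not start at 0. Nociceptor libraries 1 to 3 are the 3 highest libraries for DPPA4 and for each of the lower 3 lists, and the 3 lowest for SALL4.

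Other pluripotency genes were measured as lists, and since edgeR called 0% of all 16130 genes in each contrast, a count of 0 is not a result about a list. Of 18 further genes of primed pluripotency, 17 were in the table and 8 were tested, and 0 passed in any contrast. Their median log2 fold change was -0.35 for mechanoreceptor minus nociceptor (0.00 over all genes) and 0.34 for proprioceptor minus nociceptor (0.03 over all genes). SOX2 and FOXD3, which neural progenitors and neural crest also express, had the values farthest below 0 among them. SOX2 had 0.172, 0 and 3.23 TPM in mechanoreceptor, 0.172, 3.44 and 0.0499 in proprioceptor and 5.16, 5.09, 9.57 and 0.902 in nociceptor libraries (mechanoreceptor minus nociceptor -2.33 ± 1.64, edgeR adjusted p = 0.668), highest in nociceptor libraries 1 to 3 as DPPA4 was. ZFP42 (REX1), a marker of undifferentiated cells, had at most 12 counts in any library, FGF4 had 0 in all, and UTF1 at most 19. GDF3, a NODAL-related ligand, had at most 0.0346 TPM in mechanoreceptor and 0.130 TPM in proprioceptor libraries, 0 in nociceptor libraries 1 to 3 and 2.41 TPM in nociceptor library 4. Of 10 naive pluripotency genes 6 were tested and 0 passed, and of 10 germ cell genes 6 were tested and 0 passed. Of the germ cell genes, SOX17 had 0 counts in all libraries, DAZL at most 3, DND1 at most 7 and DDX4 at most 11. The tested ones had at most 20 (TEX14), 21 (PIWIL2), 53 (PRDM1), 69 (NANOS3), 181 (KIT) and 512 counts (TFAP2C), the last 2 being genes that other cell types also use.

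The genes with the profile most like that of DPPA4 over the 10 libraries were found by the root mean square difference of centred log2 CPM, a measure with no test. They were MGST1 (0.634), a membrane glutathione transferase, BBOX1 (0.678), an enzyme of carnitine synthesis, MCM10 (0.701), a replication factor, NMI (0.732), an interferon-inducible protein, and CALB1 (0.745), the calcium-binding protein calbindin, against a median difference of 2.29 over 16129 genes. L1TD1 ranked 76 in likeness to DPPA4 (1.00), DPPA4 ranked 950 in likeness to L1TD1 at the same distance, and SALL4 ranked 15670 in likeness to DPPA4 (3.00). For L1TD1 the nearest were its chromosomal neighbour KANK4 (0.386), ESCO2 (0.441), a cohesin acetyltransferase, SEPTIN10 (0.457), DPYD (0.462), an enzyme of pyrimidine breakdown, and IFIT3 (0.493), an interferon-induced gene, against a median of 1.61. For LIN28B they were TRPC1 (0.238), RASA2 (0.254), GUF1 (0.255), UBA6 (0.258) and ZNF615 (0.263), against a median of 0.893. Of these, TRPC1, a cation channel, had 22.4, 12.4 and 9.33 TPM in mechanoreceptor, 2.12, 8.44 and 13.3 in proprioceptor and 18.9, 5.42, 4.45 and 8.67 in nociceptor libraries. By TPM, proprioceptor library 1 was lowest for LIN28B and for these 5 genes. The same library was lowest for L1TD1 (0.0865), DNMT3B (0.150), POU5F1 (0.0541) and the sum of the 10 genes (1.98). It was not lowest for DPPA4, LIN28A, NANOG or SALL4, so the low value is not particular to LIN28B and its nearest profiles. The libraries share 1 line and differ in composition, which all these profiles contain.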

How the data were processed

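Estimated counts and TPM values per gene and per transcript were deposited by the authors, with counts rounded to whole numbers. The submitters' processing notes name kallisto 0.50.1 and the build GRCh38.p14, while how transcripts were summed to genes is not given in the sources used here. Per the labels' protocols, extraction used Trizol, the Clontech Ultra Low v4 kit gave the cDNA and NexteraXT the libraries. An entry with a blank name (0.733% to 1.66% of the expected counts) was left out. Replicates differed by more than sampling noise (lowest chi-square per degree of freedom 122.9), so none was merged.

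Estimated counts of 30357 genes were filtered with filterByExpr (16130 kept), scaled by TMM and fitted with edgeR 4.0.16 (R 4.3.3, glmQLFit and glmQLFTest, 1 mean per protocol over all 10 libraries, two-sided, Benjamini-Hochberg over all genes, threshold 0.05). Standard errors were derived from the quasi-likelihood test. Log2 CPM used a prior count of 2. The fit was tested on simulated data. DESeq2 1.42.0 and limma 3.58.1 (log2 of TPM plus 1, or plus 0.1) were alternatives, as were other size factors, no filter, 2-protocol fits, a replicate block, covariates and leaving out each library. The 10 genes, the lists and the tests were chosen with earlier results of these data known. Named genes were, per list, the up to 3 with the largest fold changes, the 5 nearest profiles, and set markers; PATJ, GDF3, UTF1, FGF4 and the germ cell markers given by count were chosen after their values were seen. Transcript names came from GENCODE release 29, whose transcripts held 20.7% to 68.2% of the DNMT3B counts, so that gene is not split by transcript. Protein sequences were not used here.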

Additional observations from a re-analysis of the deposited data

Results flagged for a closer look

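SALL4 in the nociceptor group had 1 library far from the other 3: nociceptor library 4, at 2.43 TPM, against 0.231, 0.314 and 0.371 TPM in libraries 1 to 3 (gap over range 0.936, above Dixon's 95% limit for 4 samples). DPPA2 in the same group had 0.0562 TPM, from 2 counts, in nociceptor library 1 and 0 in libraries 2 to 4 (gap over range 1.00), which is under the floor of 3 counts. Chance marks about 1 in 20 groups. The rule was applied only to the nociceptor group, which had 4 libraries. In the mechanoreceptor group, where it was not applied, SALL4 was 3.42 TPM in library 1, against 0.589 and 0.609 TPM in libraries 2 and 3.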

How the results depend on the processing

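With the main settings edgeR called 0 genes in each contrast. The count became 130 with DESeq2 (16 higher, 114 lower) and 6 with the proliferation level as a covariate for mechanoreceptor minus nociceptor, 1 with that covariate for mechanoreceptor minus proprioceptor, and 31 with DESeq2 (12 higher, 19 lower) for proprioceptor minus nociceptor; the cause was not tested. It was 0 under every other alternative run, and 0 to 0 over the fits that left out 1 library. Of 133 repeats of the tested fold changes of proprioceptor minus nociceptor, 122 kept their direction and their side of the threshold. DPPA4 passed with DESeq2 only (adjusted p = 0.0476), a value not independent of its choice, since the nociceptor libraries were shared. Sign changes were found for 3 genes whose main value lay between -0.19 and 0.18: LIN28A was -0.04 with limma on log2(TPM + 0.1) and ranged from -0.87 to 0.62 when 1 library was left out, LIN28B ranged from -0.74 to 0.24, and SALL4 was 0.08 with limma on log2(TPM + 0.1), 1.22 with the replicate block, and ranged from -0.39 to 1.28. When 1 library was left out DPPA4 lay between -4.00 and -3.36 and L1TD1 between -3.05 and -1.69, while with limma on log2(TPM + 1) they were -1.65 and -0.80 and with the proliferation level as a covariate -0.93 and -0.59. For mechanoreceptor minus nociceptor DPPA4 ranged from -6.65 to -3.87 and L1TD1 from -3.89 to -2.75 when 1 library was left out, and on log2(TPM + 1), a scale that understates the change of low genes, they were -1.74 and -1.01. The labels do not say whether same-numbered libraries form pairs, though library names run in order of replicate number. Correlations of their deviations from protocol means ran from -0.633 to 0.490, which cannot decide it with so few libraries. With a replicate block 2392 genes had an edgeR unadjusted p under 0.05 for mechanoreceptor minus nociceptor, against 1320 without. For proprioceptor minus nociceptor it was 1974 against 998, and for mechanoreceptor minus proprioceptor 221 against 241. The replicate block called 0 genes, and SALL4 was 1.79 with it for mechanoreceptor minus nociceptor, where nociceptor library 4, alone in its block, carries no weight by construction. Genes under about 10 counts (POU5F1, CRIPTO, DPPA2) are limited by depth.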
